A study of Mus musculus with 9 samples.

Results

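The genes described here encode calcineurin, the NFAT transcription factors and proteins that hold calcineurin back, in CD4+ T cells before and after 3 h of activation. They were taken by name, with no measured value in the rule: the NFAT genes Nfatc1, Nfatc2, Nfatc3 and Nfat5, the catalytic subunit genes Ppp3ca, Ppp3cb and Ppp3cc, the regulatory subunit gene Ppp3r1, and the inhibitor genes Rcan1 and Cabin1. These are 10 of the 55573 gene identifiers in each table. All 10 had enough counts to be tested, among 13328 genes in all.

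Engagement of the T cell receptor raises calcium in the cytoplasm, and calcium-loaded calmodulin then switches on calcineurin, a phosphatase made of a catalytic A subunit and a regulatory B subunit. Calcineurin removes phosphates from NFATc1, NFATc2 and NFATc3, which move into the nucleus and bind DNA, often beside AP-1, at genes such as Il2. NFAT5 lacks the calcineurin docking region of the other members and is best known as the factor that responds to hypertonic stress. Since NFATc proteins are controlled largely by phosphorylation and location, RNA levels describe the supply of the components and not their activity.

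The cells came from the spleen of B6 mice and are labelled as CD4+ T cells. Naive cells were not activated, and the other groups were activated for 3 h on plates coated with antibodies to CD3 and CD28, in an incubator set at 37 °C or at 39 °C. The antibodies engage the T cell receptor and its costimulatory partner, and 39 °C is a febrile temperature. No group carried a transgene or deletion, and neither age nor sex of the animals was available here. Each group had 3 libraries prepared from total RNA, with 12647692 to 17605549 counts per library. The labels place spleen cells in the coated wells but describe CD4+ cells as isolated and then activated, so the order of these steps was not settled, and it is not stated whether the naive cells spent the same time in medium. Nor do they say if libraries of a group stem from separate mice or wells, so a p-value here measures the spread between these libraries, which may be technical.

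Summed over 10 CD4 T cell markers, the level lay between 5490 and 7287 CPM (library-size-normalised counts, scaled by TMM) in all naive libraries and between 5805 and 6568 CPM in the activated ones. The sum covers markers that moved in both directions. Against naive, 2 were called higher, 5 lower and 3 not called at 37 °C, and 1 higher, 4 lower and 5 not called at 39 °C. Over all genes tested, 30.9% were called higher and 31.8% lower at 37 °C, and 29.2% and 29.8% at 39 °C. The summed markers of each other cell type examined were lower after activation. The 10 B cell markers summed to 755.8 to 905.1 CPM in naive libraries against 232.9 to 243.1 CPM at 37 °C and 246.8 to 260.4 CPM at 39 °C, and all 10 were called lower against naive at both temperatures. The 8 erythroid and platelet markers, of which 1 had no count anywhere, summed to between 134.7 and 224.9 CPM in naive libraries and between 2.80 and 4.18 CPM in activated ones. The 8 myeloid markers summed to 16.1 to 21.1 CPM in naive cells and to 8.58 to 11.4 CPM after activation. Of these, 6 were tested, with 3 called lower and 3 not called at 37 °C, and 4 lower and 2 not called at 39 °C. Cd68 and Fcer1g were among those not called. The sums for NK, CD8 T cell and neutrophil markers were lower after activation as well. The 6 stroma and endothelium markers, mostly Pecam1, which T cells also express, summed to 295.5 to 319.4 CPM in naive and 131.2 to 162.1 CPM in activated libraries. Within this list, naive library 2 alone held 106 counts of Col1a1, 110 of Col1a2, 80 of Col3a1 and 21 of Dcn. Every other library had 0 to 6 counts of each of these genes. The part of these cells in the results against naive was not tested, and in bulk RNA fewer cells of a type and less RNA per cell cannot be told apart. Naive library 1 also stood apart from the other naive libraries. Its ribosomal protein genes took 14.3% of counts against 10.0% and 11.8% in the other naive libraries, and it held the lowest naive level of 5 of the 10 genes (Nfatc1, Nfatc2, Nfatc3, Nfat5 and Cabin1) and the highest of 5 (Ppp3ca, Ppp3cb, Ppp3cc, Ppp3r1 and Rcan1).

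Activation at 37 °C raised Nfatc1 and Nfat5 and lowered Nfatc2, Nfatc3 and Ppp3cc. Ppp3ca, Ppp3cb and Ppp3r1 were called lower and Rcan1 higher at smaller sizes. By edgeR's quasi-likelihood test with Benjamini-Hochberg adjustment over all genes, at an adjusted p under 0.05, 3 of the 10 were called higher and 6 lower than in naive cells, and Cabin1 was not called. Over all genes tested 62.7% were called in this comparison, 30.9% higher and 31.8% lower. The median log2 fold change of the 10 was -0.25, beside -0.00 over all genes. Naive and 37 °C libraries did not overlap for 9 of the 10, all but Cabin1, which compares with 65.4% of all genes tested. Without naive library 1, 8 of the 10 were called, 3 higher and 5 lower, and DESeq2 called 8.

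**Figure D1:**
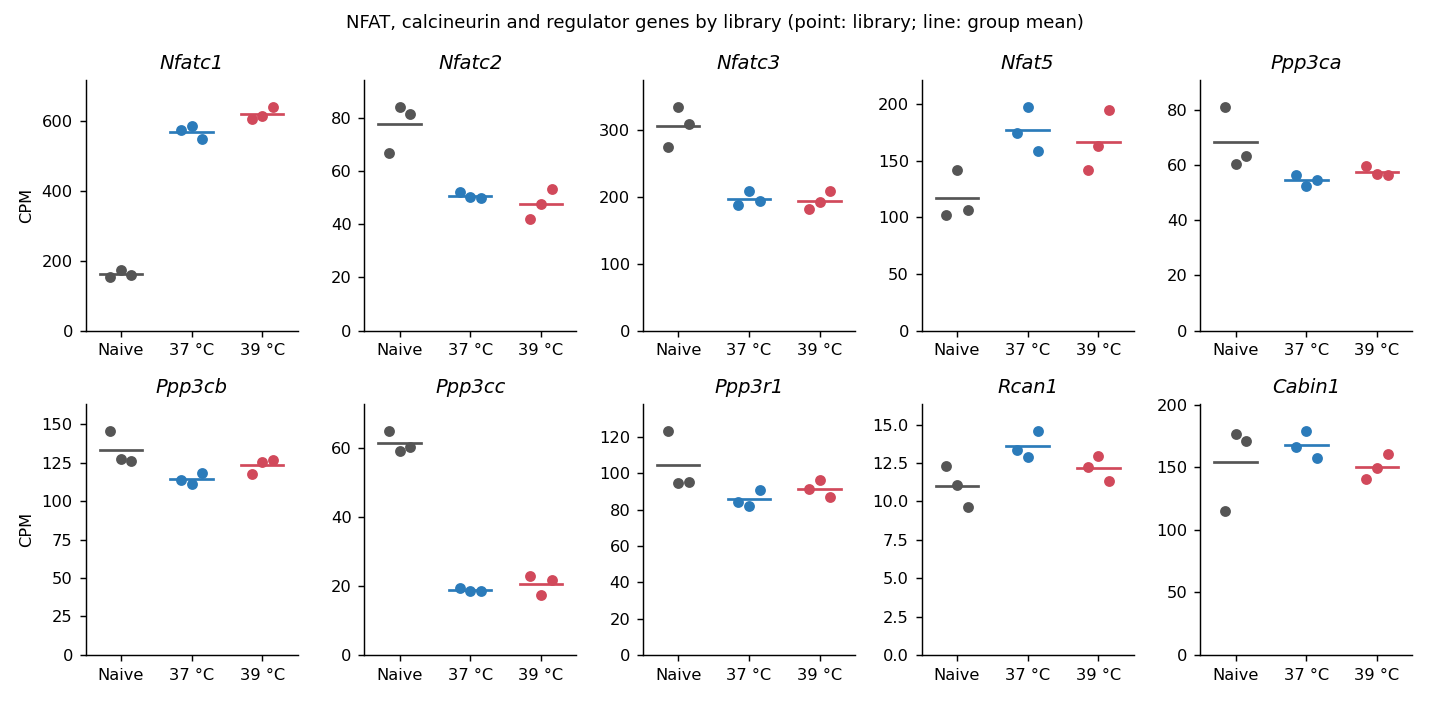
Level of each of the 10 genes in CPM (linear axis, one panel per gene, each with its own scale), with 1 point per library and the mean (n = 3) of each group. The naive points of Nfatc1, at 152.6 to 172.2 CPM, lie far below all activated points, those of Ppp3cc lie above them, and those of Cabin1 mix with them.

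Nfatc1 (ENSMUSG00000033016, chromosome 18, 80606205 to 80713071 in GRCm38, minus strand) encodes the NFAT protein that is itself induced in activated lymphocytes. Its naive libraries held 152.6, 172.2 and 160.3 CPM, those activated at 37 °C held 574.0, 585.0 and 548.5 CPM, and those at 39 °C held 603.9, 612.6 and 640.7 CPM. The lowest activated library was thus more than 3 times the highest naive one. The rise at 37 °C was 3.52-fold, a log2 fold change of 1.82 ± 0.072 (SE of the edgeR fit, n = 3 per group as throughout; adjusted p = 1.19e-09), and 3.65% of tested genes had a larger rise. At 39 °C against naive the log2 fold change was 1.94 ± 0.073 (edgeR, adjusted p = 7.49e-10). The counts sum all 7 annotated transcripts of the gene, so the short inducible isoform and the longer ones are not separated.

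Nfatc2 (ENSMUSG00000027544, chromosome 2, 168476410 to 168601657, minus strand), the NFAT protein prominent in resting T cells, moved the other way. It was at 66.8, 84.1 and 81.5 CPM in naive cells, at 52.2, 50.1 and 49.6 CPM at 37 °C and at 41.9, 47.6 and 53.1 CPM at 39 °C, with every activated library under every naive one. The fall was 1.53-fold at 37 °C (log2 fold change -0.61 ± 0.10, edgeR adjusted p = 0.00024) and 1.63-fold at 39 °C (-0.71 ± 0.10, adjusted p = 8.66e-05).

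Nfatc3 (ENSMUSG00000031902, chromosome 8, 106058840 to 106130537, plus strand), the third calcineurin-dependent factor of T cells, fell in the same manner. Naive libraries held 274.6, 334.9 and 308.3 CPM, libraries at 37 °C held 188.2, 208.8 and 193.5 CPM, and libraries at 39 °C held 181.8, 191.6 and 208.7 CPM. The highest activated value remained below the lowest naive value. The log2 fold change was -0.64 ± 0.086 at 37 °C (edgeR adjusted p = 4.41e-05) and -0.66 ± 0.086 at 39 °C (adjusted p = 3.69e-05). An exon stretch of 219 bases, 1.87% of the gene's exon length, overlaps Esrp2 on the opposite strand, which itself had 1 to 22 counts per library.

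Nfat5 (ENSMUSG00000003847, chromosome 8, 107293470 to 107379517, plus strand) was the other factor to rise. It was at 102.1, 141.9 and 106.6 CPM in naive cells and at 174.1, 197.8 and 158.2 CPM at 37 °C, a gain of 1.51-fold (log2 fold change 0.60 ± 0.14, edgeR adjusted p = 0.00295). At 39 °C the libraries held 141.5, 163.4 and 195.0 CPM, and the lowest of them was under the naive library at 141.9 CPM. The call there held all the same (0.51 ± 0.14, adjusted p = 0.00808). Spread was wide in each group, with an SD of 21.8, 19.9 and 26.9 CPM. Nfatc4, the remaining calcineurin-dependent NFAT gene, had no count in any library.

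The make-up of the calcineurin-dependent NFAT RNAs differed between naive and activated libraries. Per kilobase of exon, Nfatc1 made up 40.7%, 38.7% and 38.7% of the summed Nfatc1, Nfatc2 and Nfatc3 RNA in the naive libraries, 78.6%, 77.7% and 77.6% at 37 °C and 80.6%, 79.7% and 79.0% at 39 °C. Nfatc3 led in naive cells with 47.4 ± 0.64% (SD, n = 3) and dropped to 17.2 ± 0.67% at 37 °C and 15.9 ± 0.47% at 39 °C. Nfatc2 went from 13.3 ± 0.66% to 4.90 ± 0.18% and 4.32 ± 0.34%. The share of Nfatc1 was 38.6 percentage points higher at 37 °C than in naive cells and 40.4 points higher at 39 °C, with no overlap. An exact 2-sided permutation test over libraries gave p = 0.1 for each, the smallest that 3 against 3 allows, and 0.113 after adjustment over 9 such tests of shares. With the longest transcript as the length, the shares of Nfatc1 were 35.1%, 74.6% and 76.6%, in the same order.

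**Figure D2:**
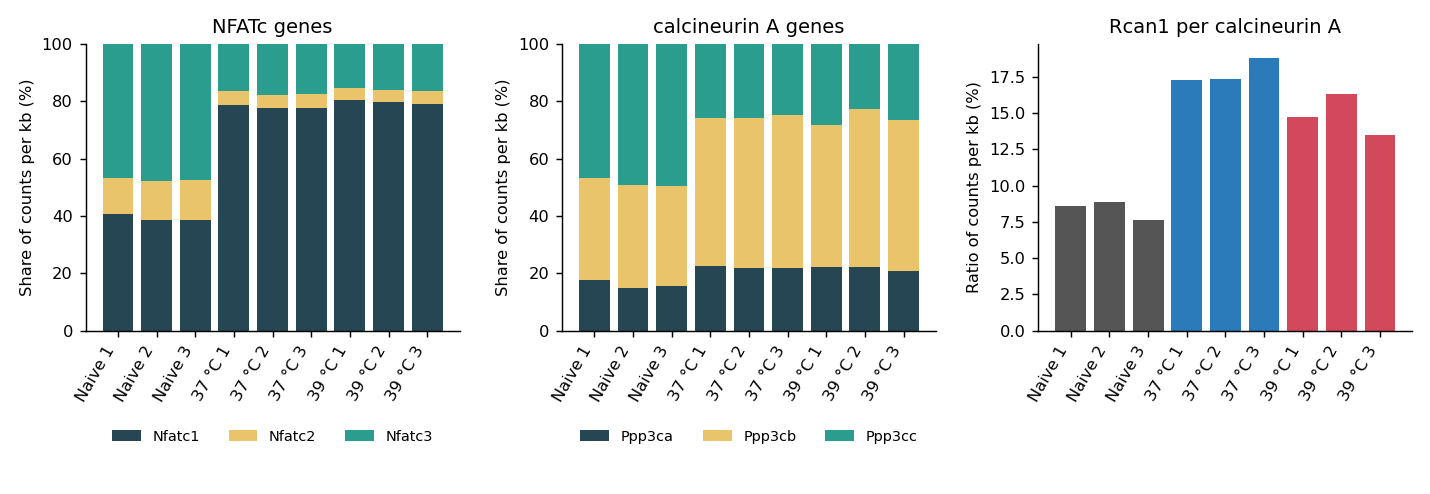
Shares per kilobase of exon in percent for each library (linear axis from 0): Nfatc1, Nfatc2 and Nfatc3 among the NFATc RNAs, Ppp3ca, Ppp3cb and Ppp3cc among the calcineurin A RNAs, and Rcan1 as a percentage of summed calcineurin A. The group mean of Nfatc1 moves from 39.4% to 77.9% and 79.8%, and that of Ppp3cc from 48.5% to 25.4% and 25.9%.

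Among the catalytic subunits, Ppp3cc fell by far the most. Ppp3cc (ENSMUSG00000022092, chromosome 14, 70217865 to 70289471, minus strand) encodes calcineurin A gamma, the isoform otherwise known from testis. It was at 65.0, 59.2 and 60.4 CPM in naive cells, at 19.3, 18.5 and 18.6 CPM at 37 °C and at 22.9, 17.4 and 21.6 CPM at 39 °C. All 6 activated libraries were thus below 23 CPM and all naive ones near 60 CPM. The fall was 3.27-fold at 37 °C (log2 fold change -1.71 ± 0.097, edgeR adjusted p = 2.56e-08) and 2.97-fold at 39 °C (-1.57 ± 0.096, adjusted p = 5.27e-08), and 3.42% of tested genes fell further at 37 °C. The B cell marker sum above fell 3.51-fold over the same libraries. The overlap with Gm49417 on the opposite strand is 91 exon bases, 3.05% of the length, and that gene had 0 to 11 counts per library.

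Ppp3ca (ENSMUSG00000028161, chromosome 3, 136670124 to 136937727, plus strand), which encodes the A alpha subunit, was at 81.0, 60.4 and 63.3 CPM in naive cells, at 56.2, 52.4 and 54.4 CPM at 37 °C and at 59.5, 56.5 and 56.4 CPM at 39 °C. Its activated libraries were all below the naive ones, by a narrow margin at 39 °C. The log2 fold change at 37 °C was -0.33 ± 0.10 (edgeR adjusted p = 0.013), and -0.19 without naive library 1 (adjusted p = 0.0173). The call was lost without 37 °C library 2 (-0.30, adjusted p = 0.0526). At 39 °C against naive the value was -0.25 ± 0.10 with an adjusted p of 0.0504, and -0.10 without naive library 1. It passed the threshold without naive library 2 or 3 and under most other scalings and filters.

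Ppp3cb (ENSMUSG00000021816, chromosome 14, 20499364 to 20546573, minus strand), the A beta subunit and the main isoform of lymphocytes, differed least among the catalytic subunits. Its naive libraries held 145.7, 127.6 and 126.0 CPM, those at 37 °C 114.1, 111.4 and 118.3 CPM and those at 39 °C 117.9, 125.2 and 126.6 CPM. The groups were apart at 37 °C and overlapped at 39 °C. The fall at 37 °C was -0.22 ± 0.072 on the log2 scale (edgeR adjusted p = 0.0203), and the call was lost without 37 °C library 1 (-0.21) or 2 (-0.19) and with the 6 libraries fitted alone (-0.20, adjusted p = 0.05). At 39 °C against naive the value was -0.11 ± 0.072 (adjusted p = 0.204), -0.04 without naive library 1, and -0.24 and called lower with upper-quartile scaling (adjusted p = 0.0117).

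Ppp3r1 (ENSMUSG00000033953, chromosome 11, 17159263 to 17200375, plus strand) encodes the calcium-binding B subunit that every calcineurin of these cells needs. It was at 123.3, 94.8 and 95 CPM in naive cells, at 84.5, 82.0 and 90.8 CPM at 37 °C and at 91.4, 96.6 and 86.8 CPM at 39 °C. Naive library 1 stood well above the other naive libraries, which lay close to the activated ones. The fall at 37 °C was -0.28 ± 0.10 on the log2 scale (edgeR adjusted p = 0.0262), and without naive library 1 it was -0.15 and no longer called (adjusted p = 0.0597). Leaving out 37 °C library 1 (-0.27) or 2 (-0.25) also ended the call, as did fitting the 6 libraries alone (-0.27, adjusted p = 0.0533). At 39 °C the value was -0.19 ± 0.10 (adjusted p = 0.123). Without naive library 1 it was -0.05, and it was called lower without naive library 2 (-0.25, adjusted p = 0.0434) and with upper-quartile scaling (-0.32, adjusted p = 0.0157). Of its exon length, 462 bases or 14.3% lie on the same strand as exons of Wdr92, which had 206 to 425 counts per library, so reads there could be assigned to either gene or to none. The testis B subunit gene Ppp3r2 had 1 count in all libraries together.

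The mix of calcineurin A RNAs also differed between naive and activated libraries. Per kilobase of exon Ppp3cc made up 46.9%, 49.1% and 49.5% of calcineurin A RNA in naive libraries, 25.8%, 25.7% and 24.8% at 37 °C and 28.4%, 22.7% and 26.6% at 39 °C. Ppp3cb went from 35.5 ± 0.46% of it to 52.6 ± 0.87% and 52.5 ± 2.88%. The share of Ppp3ca was 17.5%, 14.99% and 15.5% in naive cells, then 22.5%, 21.8% and 21.7% at 37 °C and 22.1%, 22.0% and 20.7% at 39 °C. It was 5.99 points higher at 37 °C and 5.60 points higher at 39 °C than in naive cells, with no overlap (exact permutation p = 0.1 for each, 0.113 adjusted). The length used sets which isoform leads in naive cells: with the longest transcript Ppp3cb held 47.1% and Ppp3cc 33.5%.

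Rcan1 (ENSMUSG00000022951, chromosome 16, 92391953 to 92470867, minus strand) encodes regulator of calcineurin 1, which binds and restrains the phosphatase. Its short form is known to be switched on by NFAT from an internal start that lies next to a cluster of NFAT-type sites, whereas the long form begins upstream. The RefSeq windows of 250 bases before both starts are shown because they differ in this respect. They are on the minus strand of GRCm38.p6 at chr16:92400079-92400328 (internal start) and chr16:92466170-92466419 (upstream start), written 5′ to 3′. Capitals mark GGAAA, the core bound by NFAT proteins, on either strand (TTTCC on the other), and TGANTCA, the AP-1 element.
Rcan1 internal start: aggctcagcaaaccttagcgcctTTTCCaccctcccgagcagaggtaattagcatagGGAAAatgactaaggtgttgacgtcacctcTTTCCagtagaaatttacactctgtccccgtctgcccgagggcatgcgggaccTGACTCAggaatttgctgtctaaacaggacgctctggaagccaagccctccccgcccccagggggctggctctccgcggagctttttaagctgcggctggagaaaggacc
Rcan1 upstream start: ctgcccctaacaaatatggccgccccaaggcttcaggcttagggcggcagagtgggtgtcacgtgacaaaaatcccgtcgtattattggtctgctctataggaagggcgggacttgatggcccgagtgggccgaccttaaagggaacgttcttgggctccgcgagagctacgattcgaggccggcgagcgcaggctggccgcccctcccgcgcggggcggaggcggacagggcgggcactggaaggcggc
The internal window holds 3 matches to GGAAA and 1 to TGANTCA, and the upstream window holds neither. Of 32851 RefSeq windows of this length, 55.6% hold GGAAA, 6.39% hold at least 3 and 6.75% hold TGANTCA. A match describes the letters only, and the gene-level counts do not tell which start was used.

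The gene was weakly expressed and changed little, with 158 to 197 counts per library. Rcan1 was at 12.3, 11.1 and 9.64 CPM in naive cells, at 13.4, 12.9 and 14.6 CPM at 37 °C and at 12.3, 13.0 and 11.4 CPM at 39 °C. The 37 °C libraries were all above the naive ones, and the 39 °C libraries lay within or just above the naive range. The log2 fold change at 37 °C was 0.31 ± 0.11 (edgeR adjusted p = 0.033). This call was lost with DESeq2 (adjusted p = 0.0606), with upper-quartile scaling (0.18), with every gene that has a count (0.31), with the 6 libraries alone (0.32, adjusted p = 0.0501), and without naive library 3 (0.22) or 37 °C library 1 (0.33) or 3 (0.26). For 39 °C against naive it was 0.15 ± 0.12 (adjusted p = 0.28).

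The level of Rcan1 was also set against that of its target. Per kilobase of exon it came to 8.59%, 8.90% and 7.65% of summed calcineurin A RNA in naive libraries, to 17.3%, 17.4% and 18.8% at 37 °C and to 14.7%, 16.3% and 13.5% at 39 °C. The ratio was 9.45 points higher at 37 °C and 6.48 points higher at 39 °C than in naive cells, without overlap (exact permutation p = 0.1 for each, 0.113 adjusted). Its denominator contains Ppp3cc, which made the largest contribution to the calcineurin A sum in naive cells per kilobase of exon. With the longest transcript Ppp3cb led that sum instead, at 47.1% against 33.5% for Ppp3cc. With the longest transcript as the length the ratios were 6.42%, 12.0% and 10.0%.

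Cabin1 (ENSMUSG00000020196, chromosome 10, 75646112 to 75764341, minus strand) encodes a large nuclear protein that binds calcineurin and represses MEF2. Naive libraries held 115.1, 176.6 and 170.9 CPM, those at 37 °C 166.5, 179.1 and 157.5 CPM and those at 39 °C 140.7, 149.8 and 160.7 CPM. Naive library 1 lay below all other libraries, while the other naive libraries lay within the range at 37 °C and above all libraries at 39 °C. The log2 fold change was 0.12 ± 0.13 at 37 °C (95% interval -0.17 to 0.41, edgeR adjusted p = 0.449) and -0.04 ± 0.13 at 39 °C (adjusted p = 0.826). Without naive library 1 these became -0.05 and -0.21, the latter called lower (adjusted p = 0.0182).

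RefSeq windows were examined for 7 of the 10 genes, 10 windows in all. None was examined for Nfatc1, Ppp3ca or Ppp3cc, which does not mean that RefSeq lacks them. Outside Rcan1, 2 further windows are shown since they belong to NFAT genes that moved in opposite directions. The first is upstream of the 5′-most Nfatc2 start at chr2:168601658-168601907, minus strand, and the other is the Nfat5 window at chr8:107293220-107293469, plus strand, with capitals as before.
Nfatc2: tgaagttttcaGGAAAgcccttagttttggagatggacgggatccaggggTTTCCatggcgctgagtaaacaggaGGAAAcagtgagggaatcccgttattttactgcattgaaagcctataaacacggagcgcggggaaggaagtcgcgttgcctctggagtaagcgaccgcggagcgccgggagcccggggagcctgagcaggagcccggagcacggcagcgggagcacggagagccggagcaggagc
Nfat5: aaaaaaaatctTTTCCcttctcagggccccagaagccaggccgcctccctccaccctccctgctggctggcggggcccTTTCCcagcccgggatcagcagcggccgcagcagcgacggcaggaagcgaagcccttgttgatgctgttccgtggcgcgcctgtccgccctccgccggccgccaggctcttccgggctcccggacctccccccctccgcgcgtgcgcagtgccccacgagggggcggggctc
The Nfatc2 window, of a gene that fell, holds 3 matches to GGAAA, and the Nfat5 window, of a gene that rose, holds 2. The Ppp3cb window holds 3, the other Nfatc2 window and 1 of the Nfatc3 windows hold 1 each, and the Ppp3r1, Cabin1 and second Nfatc3 windows hold 0. TGANTCA was found in none of these 8 windows. The median over all RefSeq windows is 1 match to GGAAA.

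Against naive cells, activation at 39 °C gave calls for fewer of the 10 genes. Nfatc1 and Nfat5 were called higher and Nfatc2, Nfatc3 and Ppp3cc lower, and 5 were not called. Over all genes 58.9% were called here, 29.2% higher and 29.8% lower, and the median of the 10 was -0.15 beside -0.00 over all genes. The groups did not overlap for 5 of the 10 (Nfatc1, Nfatc2, Nfatc3, Ppp3ca and Ppp3cc), against 61.3% of all genes. Both comparisons use the same naive libraries. Whether the responses differ is the comparison of 39 °C with 37 °C itself.

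That comparison called 0 of the 10 genes by edgeR, 0 by DESeq2 and 0 at an unadjusted p under 0.05. Over all genes edgeR called 0.758%, 0.135% higher and 0.623% lower at 39 °C, and 7.96% had an unadjusted p under 0.05. Nfatc1 differed by 0.12 ± 0.070 on the log2 scale (95% interval -0.03 to 0.27, adjusted p = 0.753), with all 39 °C libraries above all 37 °C libraries. Ppp3ca was the other gene without overlap (0.08 ± 0.10, interval -0.14 to 0.30, adjusted p = 0.893), so 2 of 10 did not overlap, against 20.9% of all genes.

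The values of the remaining genes at 39 °C against 37 °C were split between directions. Ppp3cc (0.14 ± 0.10), Ppp3cb (0.10 ± 0.072) and Ppp3r1 (0.10 ± 0.10) had positive values, so that all calcineurin subunit genes did. Rcan1 (-0.16 ± 0.11), Cabin1 (-0.16 ± 0.13), Nfatc2 (-0.09 ± 0.10), Nfat5 (-0.09 ± 0.14) and Nfatc3 (-0.02 ± 0.086) had negative ones. None of these values passed the test, with adjusted p-values from 0.753 to 0.971 over the 10 genes. Their 95% intervals lay between -0.45 and 0.36 on the log2 scale, and each included 0. The share of Nfatc1 among the NFATc RNAs was 1.84 points higher at 39 °C than at 37 °C without overlap, and the ratio of Rcan1 to calcineurin A was 2.97 points lower, also without overlap (exact permutation p = 0.1 for both, 0.113 adjusted). The share of Ppp3ca overlapped (exact permutation p = 0.6).

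**Figure D3:**
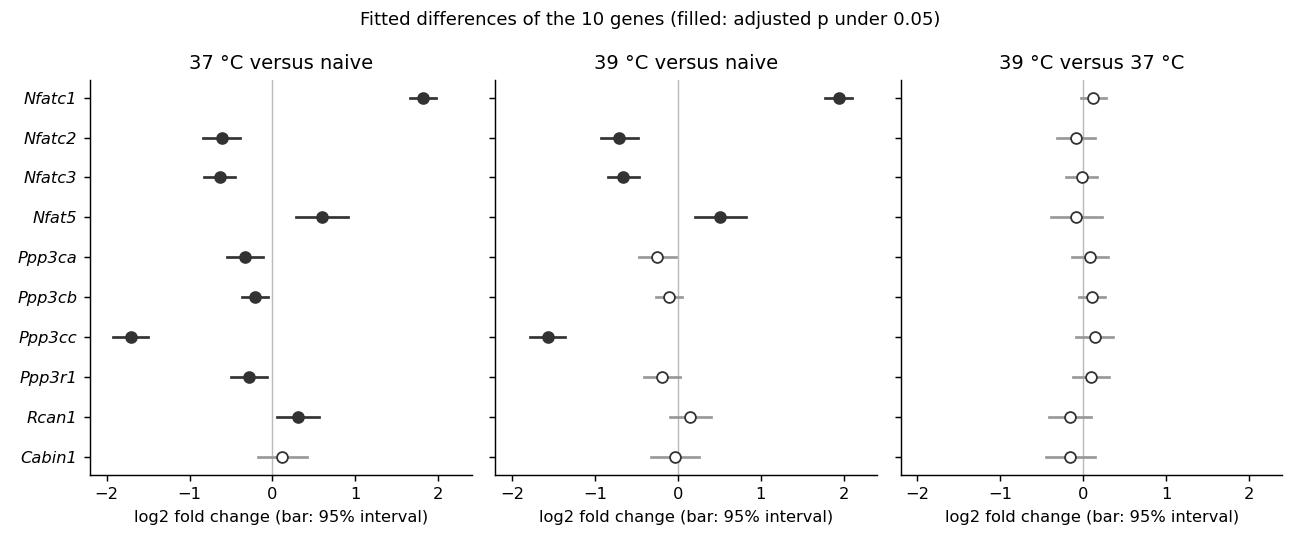
Log2 fold changes of the 10 genes in the 3 comparisons, with bars for the 95% interval of the edgeR fit and filled points for adjusted p under 0.05. Nfatc1 and Ppp3cc lie farthest from 0 in both comparisons with naive cells, and every interval of 39 °C against 37 °C crosses 0.

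Per kilobase of exon, the regulatory subunit led in naive cells and Nfatc1 after activation. In naive cells the order of mean levels in CPM per kilobase was Ppp3r1 (32.3), Nfatc3 (26.1), Nfatc1 (21.7), Ppp3cc (20.6), Ppp3cb (15.1), Cabin1 (12.7), Nfatc2 (7.32), Ppp3ca (6.84), Nfat5 (6.36) and Rcan1 (3.57). Neighbours that overlapped between libraries were Nfatc1 with Ppp3cc, Ppp3cb with Cabin1, Nfatc2 with Ppp3ca, and Ppp3ca with Nfat5. At 37 °C the order was Nfatc1 (76.2), Ppp3r1 (26.6), Nfatc3 (16.8), Cabin1 (13.8), Ppp3cb (13.0), Nfat5 (9.61), Ppp3cc (6.30), Ppp3ca (5.44), Nfatc2 (4.79) and Rcan1 (4.41), with overlaps of Cabin1 with Ppp3cb and of Nfatc2 with Rcan1. At 39 °C Nfatc1 (82.9) again led Ppp3r1 (28.4) and Nfatc3 (16.6), Rcan1 (3.95) was again last, and Ppp3cb (14.0) stood above Cabin1 (12.4) without overlap. With the longest transcript as the length Nfatc3 (51.1 CPM per kilobase) came first in naive cells, and Nfatc1 still led in both activated groups.

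The genes with the most similar profiles were sought among the 8983 tested genes averaging 5 CPM or more, by the root mean square distance of centred log2 CPM over the 9 libraries. For Nfatc1 these were Adamts6, a secreted metalloproteinase (distance 0.045), Xpot, the exportin of tRNA (0.052), and Mapk11, a p38 kinase (0.080), against a median distance of 0.890 over all candidates. Adamts6 rose from 39.4 to 137.0 and 150.5 CPM in the group means. For Ppp3cc they were Sytl1 (0.076), Frat2 (0.089) and Serpini1 (0.094), with a median of 0.802.

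The other profiles were matched by genes at smaller amplitude. Nfatc3 lay nearest to Lbr, the lamin B receptor (0.022), Zmym3 (0.023) and Tshz1 (0.043), and Nfatc2 to Kremen1 (0.056), Elf4 (0.066) and Ablim1 (0.067). Nfat5 lay nearest to Dpp8 (0.069), Cdc37l1 (0.069) and Ccp110 (0.076). Ppp3ca was matched by the small GTPase gene Cdc42 (0.031), Yeats4 (0.032) and Atp6v1e1 (0.033), Ppp3cb by Atp6v1a (0.036), Lims1 (0.038) and Brcc3 (0.039), and Ppp3r1 by Rnf181 (0.041), Arl6ip1 (0.047) and Hmgb1 (0.048). Atp6v1e1 and Atp6v1a both encode subunits of the vacuolar proton pump. Rcan1 was matched by Ppm1d (0.080), Stard5 (0.082) and Lin54 (0.085), and Cabin1 by Itpkb (0.048), Prdm2 (0.051) and Adar (0.051). Distances are descriptions over 9 libraries of 3 groups, and all these genes share the same libraries and depth.

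The other genes of the pathway, a list of 26 that covers calmodulins, NFAT kinases, anchoring and docking proteins, immunophilins, nuclear transport factors and MEF2 factors, moved in both directions. Of them 21 were tested, and at 37 °C against naive 8 were called higher, 8 lower and 5 not called, with a median log2 fold change of 0.02 beside -0.00 over all genes. The shares over all genes were 30.9% higher and 31.8% lower. For 39 °C against naive cells, 6 were higher, 7 lower and 8 not called, against 29.2% higher and 29.8% lower over all genes. Between the temperatures edgeR called 0, against 0.758% of all genes, DESeq2 called 0, and 2 of 21 had an unadjusted p under 0.05, against 7.96%.

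The rises that ranked highest by adjusted p were in Kpnb1, Fkbp1a, Rcan3 and Xpo1. Kpnb1, the importin beta that carries cargo into the nucleus, was at 228.4, 273.9 and 260.8 CPM in naive cells and at 438.1, 446.2 and 444.4 CPM at 37 °C (log2 fold change 0.80 ± 0.077, edgeR adjusted p = 2.49e-06). Fkbp1a, the FKBP12 protein through which tacrolimus blocks calcineurin, rose by 0.78 ± 0.11 (adjusted p = 4.81e-05), while Ppia, the cyclophilin A gene, was not called (0.02 ± 0.13, adjusted p = 0.91). Rcan3, a relative of Rcan1, rose by 0.42 ± 0.071 (adjusted p = 0.00026) from 115.9, 135.9 and 130.9 CPM to 170.5, 171.1 and 171.4 CPM. Xpo1, the exportin that returns NFAT to the cytoplasm, rose by 0.26 ± 0.069 (adjusted p = 0.00621), a call lost with upper-quartile scaling (0.12). At 39 °C against naive Xpo1 was not called (0.05 ± 0.069, edgeR adjusted p = 0.587). Between the temperatures its value was -0.21 ± 0.069, without overlap but not called (edgeR adjusted p = 0.336). Akap5, which anchors calcineurin at membranes in neurons, had at most 40 counts per library and rose by 0.94 ± 0.36 (adjusted p = 0.0358). This call did not survive leaving out naive library 3 (0.66) or 37 °C library 2 (0.69), or upper-quartile scaling (0.81).

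Falls among these genes included 2 calmodulin genes, whose protein senses calcium. Chp1, a calcineurin B homologue that inhibits calcineurin, fell by 0.49 ± 0.073 on the log2 scale (edgeR adjusted p = 0.000103). Calm3 fell by 0.37 ± 0.074 (adjusted p = 0.000846) and Calm2 by 0.35 ± 0.13 (adjusted p = 0.0294), the latter -0.17 and not called without naive library 1 (adjusted p = 0.079), and also not called without 37 °C library 1 (-0.33) or 2 (-0.31). Of the kinases that rephosphorylate NFAT, Gsk3b fell by 0.44 ± 0.10 (adjusted p = 0.00277), while Dyrk1a was not called (-0.03 ± 0.067, adjusted p = 0.714). Kinases added after their values were seen went both ways: Csnk1a1 rose by 0.22 ± 0.067 (edgeR adjusted p = 0.0117), Dyrk2 fell by 0.20 ± 0.063 (adjusted p = 0.017) and Gsk3a was not called (0.16 ± 0.070, adjusted p = 0.0672). The Csnk1a1 call was lost with upper-quartile scaling (0.088) or the length trend removed (0.11), and the Dyrk2 call with any count (-0.20) and without 37 °C library 1 or 3 (-0.18 for both). Gsk3a was called higher without naive library 3 (0.20) and with the length trend removed (0.22). Mef2c fell by 1.08 ± 0.20 (adjusted p = 0.000529) from 6.81, 6.66 and 6.60 CPM to 3.43, 2.27 and 3.804 CPM. It is well known from B cells, whose marker sum fell over the same libraries.

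A list of 29 genes known as NFAT targets in T cells had 26 tested members. At 37 °C against naive 20 were called higher, 3 lower and 3 not called, with a median log2 fold change of 3.51, and at 39 °C the counts were the same with a median of 3.49. The shares called higher and lower among all genes were 30.9% and 31.8% at 37 °C and 29.2% and 29.8% at 39 °C, with medians of -0.00. Many of them are also induced by other arms of T cell receptor signalling. By adjusted p the leading rises at 37 °C were in Egr2, Egr3, Nr4a2, Nr4a3 and Irf4, all at 5.92e-12 by edgeR. Nr4a3, an orphan nuclear receptor of activated T cells, went from 75.6, 84.7 and 81.8 CPM to 1694, 1790.0 and 1722 CPM at 37 °C and 1441, 1515 and 1596 CPM at 39 °C. Il2, the textbook NFAT and AP-1 target, was at 0.481, 0.421 and 0.169 CPM in naive cells, at 30.1, 34.2 and 32.1 CPM at 37 °C and at 39.3, 38.1 and 33.7 CPM at 39 °C, so the activated groups overlapped.

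The 3 members called lower were Dgka, Ctla4 and Lag3. Dgka, a kinase that removes diacylglycerol, fell by 0.82 ± 0.078 on the log2 scale (edgeR adjusted p = 2.26e-06), the inhibitory receptor gene Ctla4 by 0.71 ± 0.079 (adjusted p = 9.36e-06) and the inhibitory receptor gene Lag3 by 0.57 ± 0.15 (adjusted p = 0.00521). Other genes known to restrain T cells were called higher, among them the inhibitory receptor gene Pdcd1 (3.42 ± 0.096, adjusted p = 6.50e-11) and the ubiquitin ligase gene Cblb (1.03 ± 0.080, adjusted p = 3.81e-07), both named after their values were seen. Il3, Ifng and Rnf128 had too few counts to be tested. Between the temperatures 1 member was called: Egr3, a zinc finger factor, was at 393.3, 392.8 and 385.2 CPM at 37 °C and at 511.0, 519.1 and 559.5 CPM at 39 °C. All 39 °C libraries were above all 37 °C libraries, with a log2 fold change of 0.44 ± 0.065 (edgeR adjusted p = 0.00736). The call was lost without any 1 of the 37 °C libraries (adjusted p = 0.0672, 0.056 and 0.0677 for libraries 1, 2 and 3) and without 39 °C library 2 or 3 (0.0522 and 0.0532), while the fold change ran from 0.40 to 0.46. Over all genes 0.758% were called. At an unadjusted p under 0.05 there were 8 of 26 members, against 7.96% of all genes, and DESeq2 called 1.

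Genes known as osmotic targets of NFAT5 formed a list of 8, of which 6 were tested. At 37 °C against naive 4 were higher and 2 lower, and at 39 °C against naive 3 were higher, 1 lower and 2 not called. Over all genes 62.7% and 58.9% were called in these comparisons. The medians of the list were 0.28 and 0.16, beside -0.00 over all genes in both. Slc5a3, the sodium and myo-inositol transporter, was at 16.2, 19.8 and 15.5 CPM in naive cells and at 245.1, 281.8 and 258.4 CPM at 37 °C, a log2 fold change of 3.93 ± 0.10 (edgeR adjusted p = 4.23e-11). Hspa4l, a heat shock protein of the HSP110 family, rose by 3.14 ± 0.085 (adjusted p = 4.97e-11), whereas Slc38a2 (0.27 ± 0.068, adjusted p = 0.00465) and Slc6a6 (0.30 ± 0.098, adjusted p = 0.0198) rose by little. The Slc38a2 call was lost with upper-quartile scaling (0.13), and the Slc6a6 call with upper-quartile scaling (0.16), with library size alone (0.27) and without naive library 3 (0.30) or 37 °C library 2 (0.27). Akr1b3, the aldose reductase that makes sorbitol, fell by 0.29 ± 0.090 (adjusted p = 0.0138), though no longer called when 37 °C library 2 was left out (-0.24). The kinase gene Sgk1 fell by 1.67 ± 0.084 (adjusted p = 9.11e-09). The list held both rises and falls, and a link between these genes and the level of Nfat5 RNA was not tested.

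Slc5a3 was the member of that list called between the temperatures. It was at 166.2, 176.3 and 185.9 CPM at 39 °C, below all 37 °C libraries (log2 fold change -0.57 ± 0.089, edgeR adjusted p = 0.0103). The call was lost without 37 °C library 2 (-0.51, adjusted p = 0.0722) or 3 (-0.58, 0.0577) and without 39 °C library 1 (-0.53, 0.0695) or 2 (-0.57, 0.0864). Over all genes 0.758% were called here. DESeq2 called 2 members, and 3 of 6 had an unadjusted p under 0.05, against 7.96% of all genes. Hspa4l had a value of -0.32 ± 0.075 (edgeR adjusted p = 0.119, DESeq2 adjusted p = 0.0204). Nfat5 itself had a value of -0.09 ± 0.14 in this comparison.

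**Figure D4:**
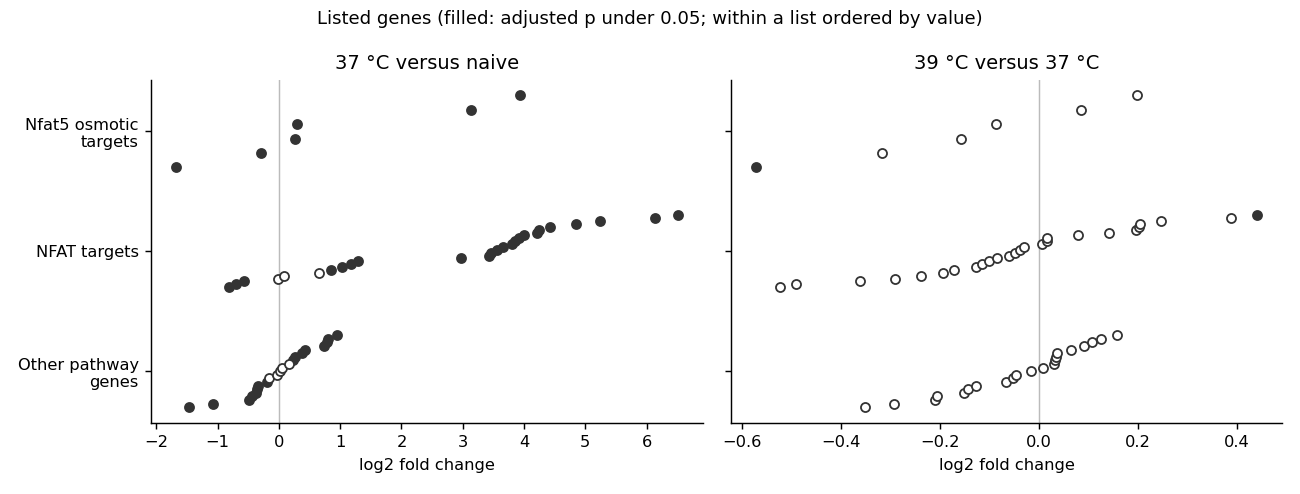
Log2 fold changes of the tested genes of the 3 lists for 37 °C against naive and for 39 °C against 37 °C, 1 point per gene, with filled points for adjusted p under 0.05. The horizontal scales differ between the panels. The NFAT targets have a median of 3.51 against naive cells, and Egr3 and Slc5a3 are the genes called between the temperatures.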

How the data were processed

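The RNA of 9 libraries was analysed, each from its own table. The authors deposited raw, unnormalised counts per gene. Of the upstream steps, the submitters' processing notes list HISAT2, HTSeq, FastQC and DESeq2, with GRCm38 as the build. TRIzol extraction and a TruSeq library kit are named per the labels' protocols. Versions, annotation release and strand setting are not given in the sources used here, so reads of a gene and of one on the opposite strand may not be separated. Of 55573 identifiers 55480 matched GENCODE M21, which supplied symbols, GRCm38 coordinates and lengths. No table had rows that name no gene, and no pair of libraries held identical values. Totals were 12647692 to 17605549 counts per library.

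The 10 genes, the lists, the naming rule and the tests were chosen with earlier results of these data known. The filterByExpr filter (10 counts minimum, 15 in total) left 13328 of 29586 genes with a count. A single quasi-likelihood fit of all 9 libraries with TMM scaling was made in edgeR 4.0.16 under R 4.3.3. Tests are 2-sided with Benjamini-Hochberg adjustment over all genes tested and a threshold of 0.05. Each standard error is the absolute fold change divided by the root of F. The fit was checked on simulated counts. Shares divide counts by exon length and were tested by exact permutation. Besides the 10 genes, those named are the 3 nearest profiles of each, up to 4 called genes per list and direction by adjusted p at 37 °C (ties included), those called between the temperatures, and some fixed by name, of which 1 is not reported here. Alternatives were scaling by library size, RLE or upper quartile, looser and stricter count filters, DESeq2 1.42.0, a replicate block, a fit of just the 6 libraries compared, an adjusted p under 0.01, other lengths and each library left out. Removal of a length trend was added after the data were seen. Sequences are from RefSeq (GRCm38.p6).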

Additional observations from a re-analysis of the deposited data

How the results depend on the processing

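Over 20 settings the calls of Nfatc1, Nfatc2, Nfatc3, Nfat5 and Ppp3cc against naive cells held at both temperatures, with log2 fold changes at 37 °C of 1.68 to 1.86 for Nfatc1 and -1.84 to -1.65 for Ppp3cc. At an adjusted p under 0.01, 5 of the 10 genes were called at 37 °C, 3 of them lower. Leaving out each library gave 6 to 9 called, 3 to 6 lower and 2 to 3 higher. At 39 °C against naive, upper-quartile scaling called 8 genes, 6 lower, and leaving out libraries gave 5 to 7, with 3 to 5 lower. Other pathway genes called there were 8 at an adjusted p under 0.01 and 8 to 17 without single libraries.

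Between the temperatures 101 of all genes were called, 18 higher and 83 lower. This became 176 with any count, 155 with DESeq2, 45 at an adjusted p under 0.01, 401 with the 6 libraries alone (136 higher, 265 lower) and 37 to 291 without single libraries (89 higher and 202 lower without naive library 1). With the 6 libraries alone 1 other pathway gene, 4 NFAT targets and 2 Nfat5 targets were called. DESeq2 called 2 Nfat5 targets and the stricter threshold 0. Without single libraries 0 to 4 NFAT targets and 0 to 2 Nfat5 targets were called.

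Directions reversed for values near 0. Cabin1 at 37 °C was -0.014 with upper-quartile scaling and -0.050 to 0.23 without single libraries, negative without naive library 1. At 39 °C against naive it ran from -0.21 to 0.069 without single libraries, with 0.069, 0.044 and 0.00013 without naive library 2, naive library 3 or 39 °C library 1. Between the temperatures Nfatc3 was 0.025, 0.022 and 0.037, and Nfat5 0.0045, 0.017 and 0.0051, without 37 °C library 2, without 39 °C library 1 and with the length trend removed. Without single libraries they reached -0.075 and -0.21. The Ppp3ca share ran from -0.61 to 0.053 points without single libraries. Ppia at 37 °C was -0.12 with upper-quartile scaling, -0.0033 with library size alone and -0.11 to 0.18 without single libraries. The cause was not tested.

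Upper-quartile scaling moved the median of all genes by -0.13 against naive at both temperatures. It gave 3340 higher and 5139 lower at 37 °C against 4114 and 4240 with TMM, and 3092 and 4914 at 39 °C against 3887 and 3968. Lengths changed the Rcan1 ratio difference from 9.45 to 5.56 points (longest transcript) and 3.06 (no length), and that of the Ppp3ca share from 5.99 to 3.998 and 3.08.

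The groups share replicate numbers that the labels do not tie to animals or days. Deviations of same-numbered libraries of different groups correlated from -0.17 to 0.33, and those of differently numbered ones from -0.34 to 0.36. With a replicate block 9, 6 and 0 of the 10 genes were called at 37 °C, at 39 °C and between temperatures, and 8519, 8065 and 97 of all genes. The added call at 39 °C was Ppp3ca (-0.24). Counting error weighs most on Rcan1, at 158 to 197 counts per library.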
